A study of Rattus norvegicus with 15 samples.

Results

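Bone of ovariectomized rats under the condition labelled YJZYT was compared with bone of ovariectomized rats under the condition labelled SYT, by bulk RNA sequencing. The comparison used 6 of the 15 libraries of the series, 3 labelled YJZYT and 3 labelled SYT, and all 22468 genes of the deposited table. YJZYT rats and SYT rats were both female Sprague-Dawley rats with ovariectomy, the surgical removal of the ovaries, which lowers oestrogen and is used as a model of bone loss after menopause. The other groups, 3 libraries each, were YJT (ovariectomized), Model (ovariectomized, condition osteoporosis) and Blank (no treatment). The study's title names Zhuanggu Zhitong Capsule, a herbal preparation, but the labels do not say what the codes YJZYT, SYT and YJT stand for or which group received the capsule. Age, dose and duration are not given in the labels. Nothing in the labels says that the libraries of a group came from separate animals, so p-values measure the spread between these libraries, which may be technical.

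A bone sample holds the cells that make matrix (osteoblasts and the osteocytes buried in it), the osteoclasts that resorb it, cartilage of the growth plate, and the marrow with its red cell, white cell and platelet precursors. Periosteum, tendon insertions and strips of attached skeletal muscle can come along with a dissected bone. In bulk samples, fewer cells of a type and less RNA per cell cannot be told apart.

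The 6 libraries held between 64472700 and 74255667 counts. Within a group, log2 expression levels correlated at 0.939 to 0.959 between YJZYT libraries and at 0.923 to 0.948 between SYT libraries, and across the groups at 0.875 to 0.96. One library of each group stood apart. On the first principal component, which held 46.2% of the variance of the 6 libraries, YJZYT3 lay at 109.4 at one end and SYT3 at -111 at the other, with the remaining 4 between -47.3 and 45.5. YJZYT3 was low and SYT3 high in bone, cartilage and fibroblast transcripts, and the reverse in red cell and platelet transcripts. Results that rest on these libraries are given with and without them. The defining osteoblast markers Col1a1, Bglap and Sp7 and the osteoclast markers Ctsk and Acp5 were detected in all 6 libraries.

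No gene passed the test between YJZYT and SYT. Of 17657 genes with enough counts to test, 0 (0%) had an adjusted p under 0.05 in edgeR's quasi-likelihood test with Benjamini-Hochberg adjustment, and the smallest adjusted p was 0.226. At an unadjusted p under 0.05 there were 1607 genes (9.1%), where 882.85 would be expected by chance alone if no gene differed. Of these, 510 were higher in YJZYT (2.89% of the genes tested) and 1097 were lower (6.21%), so 68.3% lay lower. The count of 1607 takes the spread from all 15 libraries. With only the 6 libraries of the comparison, 937 of 16575 genes tested had an unadjusted p under 0.05. With 1 library left out, the count of 1607 became 880 without YJZYT3, 905 without SYT3, 1001 without YJZYT2 and 2404 without YJZYT1. At least a 2-fold difference beside that p was found for 899 genes, 137 higher and 762 lower, and for 1500 genes without YJZYT1 and 1351 without SYT1. The split between directions depended on the scaling, since without scaling factors 740 of 1680 genes (44.0%) were lower. It also depended on the other choices: 433 of 1577 genes (27.5%) were lower with limma on log2 FPKM + 1, which tests other genes on another scale, and 1002 of 2145 (46.7%) without SYT2. DESeq2, run as an alternative on the same counts, called 280 of 18527 genes (1.51%) at an adjusted p under 0.05, 32 higher (0.173%) and 248 lower (1.34%). Of the 277 that edgeR also tested, 273 had an unadjusted edgeR p under 0.05.

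The spread between libraries set what could be seen. The biological coefficient of variation was 42.7%, the standard error of a gene's log2 fold change had a median of 0.35, and for 7999 genes (45.3%) the 95% interval of the difference lay inside a 2-fold change in either direction. For the other genes the interval reached or lay beyond a 2-fold change in at least 1 direction. Because no gene passed, the genes below are described by their values in each library, and "higher" and "lower" refer to those values and not to a call. The 15 genes with the smallest p in each direction were chosen among genes whose groups did not overlap. Their separation was thus a condition of the choice. The lower ones were Tnnc1, Adssl1, Myl2, Sh3bgr, Tsc22d3, Bnip3, Cacng1, Aspnl1, Col3a1, Cox6a2, Tmod4, Aspn, Apobec2, Depp1 and Rtn2. The higher ones were Septin7, Gp1bb, RT1-T24-1, Pdzk1ip1, Prim1, Snrpa, Fen1, Tkfc, Tmem209, C1qtnf12, Ccdc181, Dscc1, Cenpm, Mthfd2 and Apobec3. Levels are CPM, counts relative to the total of the library, scaled with TMM factors, and log2 fold changes are YJZYT over SYT.

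Transcripts of slow skeletal muscle fibres were the most distinct group, and all of them were lower in YJZYT. Slow (oxidative) fibres contract with their own forms of myosin, troponin and myosin light chain and store oxygen on myoglobin. All 12 tested genes of the slow fibre list had a negative log2 fold change, where 54.4% of all genes did. In 11 of the 12 every YJZYT library lay below every SYT library, against 6.56% of all genes tested, and 11 had an unadjusted p under 0.05, against 6.21% of all genes. The list's median log2 fold change was -3.50, beside -0.044 over all tested genes. DESeq2 called 8 of the 12 as lower, where it called 1.34% of all its genes as lower. Over the libraries left out in turn, the list's median ranged between -5.19 and -2.94, and without both YJZYT3 and SYT3 it was -2.77.

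Tnnc1, the troponin C of slow and cardiac muscle (chr16:7292096-7295465, with no genome build given in the sources used here), had 20.7, 12 and 21.5 CPM in the YJZYT libraries, against 104, 44.7 and 71.8 CPM in the SYT libraries. All 3 YJZYT libraries were below the lowest SYT library. Its log2 fold change was -2.03 ± 0.36 (SE; edgeR adjusted p = 0.231, DESeq2 adjusted p = 7.15e-05), and the 3 Model libraries averaged 21.6 ± 5.7 CPM (SD). Myl2, the regulatory light chain of slow and ventricular myosin (chr12:39951987-39958239), had 0 counts in all 3 YJZYT libraries, against 667, 827 and 1428 counts (12.2, 12.8 and 21.1 CPM) in SYT. Set against a floor of 3 counts over the group, it was at least 1040-fold lower in YJZYT, with an edgeR adjusted p of 0.231. The groups were fully separated, and the counts in SYT were far above that floor in each library.

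The same separation held for the rest of the slow programme. Myh7, the slow myosin heavy chain, had 37.8, 1.17 and 3.56 CPM in YJZYT, against 116, 167 and 241 CPM in SYT. Myoglobin (Mb) had 73.0, 2.72 and 23.3 CPM in YJZYT, against 177, 304 and 481 CPM in SYT. YJZYT1 was the highest YJZYT library for both genes, YJZYT2 was the lowest, and neither group reached into the other. Csrp3, a muscle LIM protein of the Z-disc, had 1.78, 0.138 and 0.965 CPM in YJZYT, against 13.9, 15.0 and 29.1 CPM in SYT, and its log2 fold change was -4.33. Myoz2, a Z-disc protein that binds calcineurin, had 3.74, 0.592 and 0.849 CPM in YJZYT, against 18.5, 25.3 and 36.9 CPM in SYT, and its log2 fold change was -3.96. Tpm3, a tropomyosin that many non-muscle cells also make, was the exception, with 355, 374 and 411 CPM in YJZYT against 453, 382 and 387 CPM in SYT, and the groups overlapped.

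**Figure D1:**
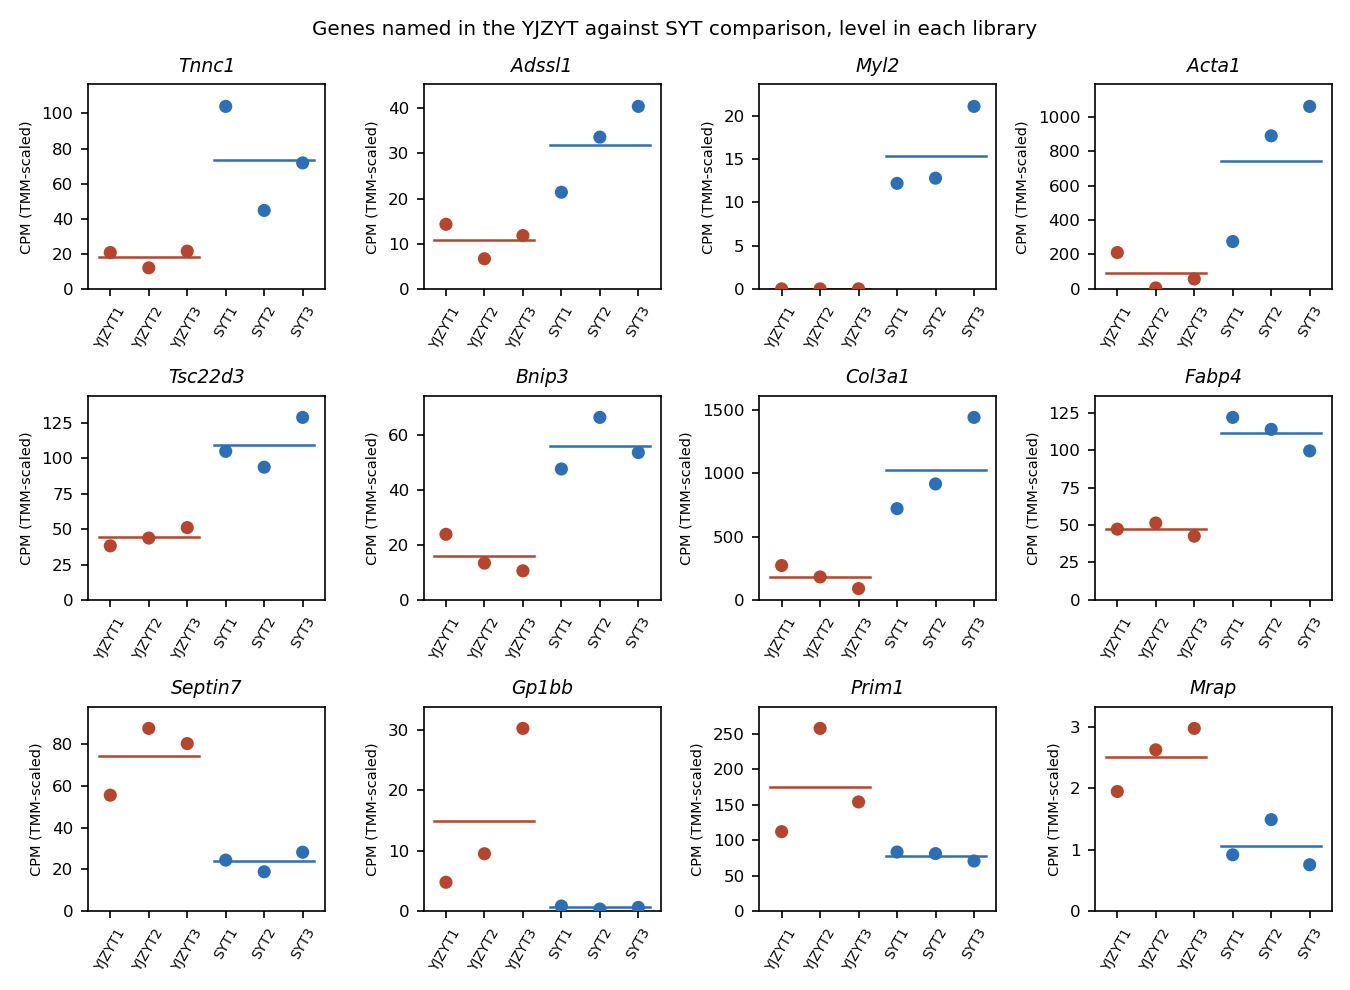
Level of 12 named genes in each library, in TMM-scaled CPM on linear axes, with YJZYT in red and SYT in blue. Points are libraries and lines are group means of 3 libraries. Tnnc1, Adssl1, Myl2, Acta1, Tsc22d3, Bnip3, Col3a1 and Fabp4 are lower in every YJZYT library than in any SYT library, and Septin7, Gp1bb, Prim1 and Mrap are higher in every YJZYT library.

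The promoters of 3 of the muscle genes with the lower values are shown because they carry letters known from muscle gene regulation. Each is 300 bases, 250 before and 50 after the start of the gene, from RefSeq on the GRCr8 build, read 5′ to 3′ on the gene's strand, with matches to the motifs below in capitals. Cox6a2 lies at chr1:192219667-192219966 (minus strand), Apobec2 at chr9:20062311-20062610 (plus strand) and Myoz2 at chr2:213852729-213853028 (minus strand).
Cox6a2: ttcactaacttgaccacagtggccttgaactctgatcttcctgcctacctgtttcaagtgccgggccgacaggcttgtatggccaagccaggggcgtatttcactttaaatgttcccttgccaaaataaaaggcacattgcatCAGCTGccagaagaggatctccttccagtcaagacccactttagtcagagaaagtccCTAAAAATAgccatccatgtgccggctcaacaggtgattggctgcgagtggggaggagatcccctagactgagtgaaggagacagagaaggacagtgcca
Apobec2: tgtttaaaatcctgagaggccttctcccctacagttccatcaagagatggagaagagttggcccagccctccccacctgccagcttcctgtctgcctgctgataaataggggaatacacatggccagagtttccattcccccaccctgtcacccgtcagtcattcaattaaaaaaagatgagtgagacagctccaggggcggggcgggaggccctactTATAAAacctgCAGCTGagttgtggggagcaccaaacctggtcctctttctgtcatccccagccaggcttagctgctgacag
Myoz2: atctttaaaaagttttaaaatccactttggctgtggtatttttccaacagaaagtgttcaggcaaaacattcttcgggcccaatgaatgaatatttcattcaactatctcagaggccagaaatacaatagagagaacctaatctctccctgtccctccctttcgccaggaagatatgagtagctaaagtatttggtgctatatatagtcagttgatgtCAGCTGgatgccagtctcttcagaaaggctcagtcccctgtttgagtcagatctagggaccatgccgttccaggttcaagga

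Searched on both strands were CAGCTG, a core of the E-box that MyoD-family factors bind, CTAAAAATA, a form of the site that MEF2 factors bind, and TATAAA, the TATA box. CAGCTG was in a promoter entry of 3 of the 9 slow fibre genes with an entry and of 4 of the 8 genes named as lower. By entries, some of which are start sites of 1 gene, it was in 45.5% of those of slow fibre genes, where Tpm3 alone gave 3 of the 5 with a match, in 30.8% of fast fibre entries, in 50.0% of muscle energy and calcium entries, in 40.0% of the entries of genes named as lower and in 30.0% of the platelet entries, whose genes had higher values in YJZYT. Cell division entries held it in 5.88% and glucocorticoid entries in 7.14%, and of all 33469 promoters of this length 15.1% did. CTAAAAATA was in 0.511% of all promoters and in 0 of the 11 slow fibre entries, and TATAAA was in 14.2% of all promoters and in 2 of the 11. In the Cox6a2 promoter CAGCTG starts at -107 and CTAAAAATA at -50 from the gene start, and in the Apobec2 promoter TATAAA starts at -32 and CAGCTG at -21. In none of the 3 did the matches overlap each other. A match describes letters in this window and is not a site of binding. Of 40 genes looked up, 31 had a promoter entry.

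The values of Myoz2 are given above. Cox6a2, the muscle form of a cytochrome c oxidase subunit, had 4.03, 0.468 and 1.36 CPM in YJZYT, against 10.3, 26.6 and 37.1 CPM in SYT (log2 fold change -3.66 ± 0.71 SE, edgeR adjusted p = 0.231). Tmod4, a tropomodulin that caps actin filaments in skeletal muscle, had 5.02, 1.13 and 2.20 CPM in YJZYT, against 10.6, 20.8 and 26.6 CPM in SYT. Apobec2, a muscle-expressed member of the cytidine deaminase family, had 4.80, 0.894 and 2.08 CPM in YJZYT, against 18.4, 22.9 and 35.9 CPM in SYT. Cox6a2, Tmod4 and Apobec2 were chosen among genes whose groups did not overlap, and in Myoz2 the groups did not overlap either. In each of these genes SYT3 was the highest library.

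Genes of fast fibres were lower in YJZYT on average, but the libraries overlapped. Fast fibres use other myosin and troponin forms and rely more on glycolysis. All 11 tested genes of the list were lower (54.4% of all genes were), and 7 had an unadjusted p under 0.05 (6.21% of all genes). The median log2 fold change was -2.85, yet only Acta1 and Myl1 were lower in every YJZYT library (6.56% of all genes). Acta1, the actin of skeletal muscle thin filaments, had 211, 5.56 and 57.5 CPM in YJZYT, against 275, 889 and 1060 CPM in SYT (log2 fold change -3.02 ± 1 SE, edgeR adjusted p = 0.424). Mylpf, the fast regulatory light chain, had 74.4, 9.64 and 40.4 CPM in YJZYT, against 50.5, 266 and 358 CPM in SYT. Tnnt3, fast troponin T, had 63.2, 2.72 and 21.0 CPM in YJZYT, against 18.4, 280 and 329 CPM in SYT. SYT1 was thus low in fast fibre transcripts, below YJZYT1 for Mylpf and Tnnt3, while in slow fibre transcripts it lay above every YJZYT library for all 12 genes. Myh4, the fastest myosin heavy chain of rat limb muscle, had 227, 2.16 and 42.0 CPM in YJZYT, against 20, 784 and 631 CPM in SYT, with an edgeR unadjusted p of 0.0836.

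Genes that feed and trigger contraction followed the same direction. All 14 genes of the muscle energy and calcium list were lower (54.4% of all genes were). Of these, 13 had an unadjusted p under 0.05 (6.21% of all genes), and the median was -2.16. In only 2 of the 14 did the groups not overlap (6.56% of all genes). Adssl1, the muscle enzyme of the purine nucleotide cycle, had 14.3, 6.67 and 11.8 CPM in YJZYT, against 21.4, 33.6 and 40.4 CPM in SYT (log2 fold change -1.54 ± 0.28 SE, edgeR adjusted p = 0.231), and the groups did not overlap. Trdn, which anchors the calcium release channel, had 4.18, 2.01 and 3.40 CPM in YJZYT, against 3.61, 30.7 and 12 CPM in SYT, and SYT1 lay below YJZYT1. Cacng1, a subunit of the calcium channel of skeletal muscle, had 0.743, 0.0963 and 0.200 CPM in YJZYT, against 2.11, 6.90 and 8.68 CPM in SYT. Sh3bgr had 6.08, 3.45 and 5.14 CPM in YJZYT, against 9.93, 20.4 and 23.2 CPM in SYT, and Rtn2, a reticulon, had 5.78, 1.87 and 1.13 CPM in YJZYT, against 8.60, 15.6 and 24.8 CPM in SYT. Cacng1, Sh3bgr and Rtn2 are outside the list. They and Adssl1 were chosen among genes whose groups did not overlap, so their separation was a condition of the choice.

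Transcripts of muscle stem cells and of the factors that build muscle were also lower, several of them at very low levels. Of 8 tested genes 7 were lower (54.4% of all genes were), 4 at an unadjusted p under 0.05 (6.21% of all genes). In 5 the groups did not overlap (6.56% of all genes). Pax7, which marks satellite cells, had 0 counts in all 3 YJZYT libraries, against 8, 19 and 7 counts in SYT, at least 12.1-fold lower with the floor of 3 counts over the group. Myog, the myogenic factor of differentiating muscle, had 0.282, 0.055 and 0.166 CPM in YJZYT, against 1.10, 1.43 and 2.05 CPM in SYT. Des, the intermediate filament protein of muscle, had 27.4, 2.09 and 6.82 CPM in YJZYT, against 44.0, 104 and 134 CPM in SYT. Setting genes with 0 counts in one group to their bounds left the medians of the slow fibre list (-3.50) and of this list (-2.97) as they were.

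Over the 4 muscle lists together, 44 of 45 tested genes were lower, against 54.4% of all genes. Of the 45, 35 were lower at an unadjusted p under 0.05 (77.8%, against 6.21% of all genes). In 20 (44.4%, against 6.56% of all genes) every YJZYT library lay below every SYT library. DESeq2 called 17 as lower, where it called 1.34% of all its genes as lower. The 23 contractile genes took 0.165%, 0.0540% and 0.0819% of all counts in the YJZYT libraries, against 0.152%, 0.476% and 0.557% in the SYT libraries. The group means were 0.1% ± 0.0577 in YJZYT and 0.395% ± 0.215 in SYT (SD, n = 3 each; exact permutation p = 0.2, two-sided, where 3 against 3 cannot go below 0.1). The sum in SYT1 lay just under that in YJZYT1, so the groups overlapped in these shares, which are not TMM-scaled. With TMM scaling, slow fibre genes summed to 1340 CPM in SYT1 and 724 CPM in YJZYT1. Fast fibre genes summed to 514 CPM in SYT1 and 901 CPM in YJZYT1. Tpm3, which many non-muscle cells also make, gave 374 of the 525 CPM of slow fibre genes in YJZYT2. In the Model libraries the 23 contractile genes averaged 0.148% ± 0.0603, which is inside the range of the YJZYT libraries. Whether the amount of muscle taken along with the bone differed between libraries was not tested.

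**Figure D2:**
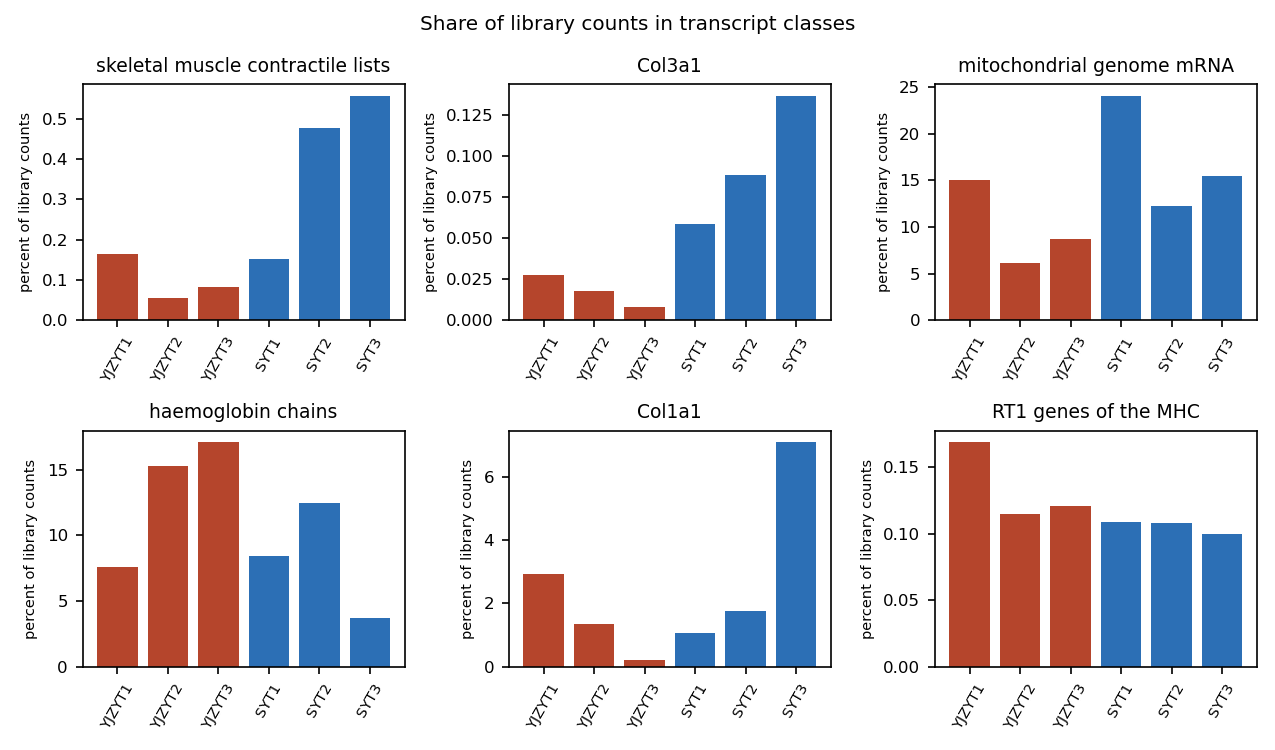
Share of a library's counts, in percent, taken by 6 transcript classes, 1 bar for each library on axes that start at 0, with YJZYT in red and SYT in blue. Muscle contractile and Col3a1 transcripts reach 0.165% and 0.0275% at most in YJZYT, and Col1a1 peaks at 7.1% in SYT3.

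Among genes of muscle wasting, 6 of 8 were lower (54.4% of all genes were) and 2, Foxo3 and Fbxo30, were higher. Of the lower ones 3 had an unadjusted p under 0.05 (6.21% of all genes), and in 1 the groups did not overlap (6.56% of all genes). The median was -0.98, and 0.28 with a mean of at least 5 FPKM, which leaves fewer of the genes. Klf15, a transcription factor of muscle and liver metabolism, had 2.23, 1.66 and 1.18 CPM in YJZYT, against 2.53, 9.54 and 9.59 CPM in SYT. Trim63 and Fbxo32, the ubiquitin ligases MuRF1 and atrogin-1, had log2 fold changes of -3.02 and -1.18, and for both SYT1 lay below YJZYT1. Cryab, a small heat shock protein abundant in oxidative muscle, had 19.0, 2.33 and 2.65 CPM in YJZYT, against 48.4, 63.4 and 93.6 CPM in SYT, and Hspb1 had 3.73, 1.2 and 1.45 CPM in YJZYT, against 6.29, 16.0 and 25.4 CPM in SYT. The heat shock list as a whole did not share this, with 7 of 12 genes higher and 5 lower and a median of 0.10. At an unadjusted p under 0.05 there were 4 lower (6.21% of all genes) and 1 higher (2.89% of all genes). Without overlap of the groups 3 lay below (6.56% of all genes) and 2 above (5.14% of all genes). Hspa8 was level, with 556, 612 and 646 CPM in YJZYT against 553, 499 and 691 CPM in SYT. Hspa1b was lower, with 1.25, 0.275 and 0.583 CPM in YJZYT against 1.65, 3.6 and 3.1 CPM in SYT. Cryab and Hspb1 separated the groups. The part of muscle in the values of Cryab and Hspb1 was not tested.

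Genes of fatty acid oxidation, the pathway that supplies slow muscle, heart and brown fat, were lower by small amounts. Of 18 genes 16 were lower (54.4% of all genes were), 8 at an unadjusted p under 0.05 (6.21% of all genes), in 6 the groups did not overlap (6.56% of all genes), and the median was -0.32. Cpt1b, the muscle form of the carnitine transferase that admits fatty acids to mitochondria, had 6.15, 1.82 and 3.16 CPM in YJZYT, against 9.73, 16.2 and 19.4 CPM in SYT, with a log2 fold change of -2.03. Cpt1b overlaps Chkb on the same strand in the deposited coordinates, so the counts may be shared. The enzymes that most tissues use differed less. Acadm, medium-chain acyl-CoA dehydrogenase, had 54.7, 57.4 and 49.6 CPM in YJZYT, against 68.6, 65.1 and 86.3 CPM in SYT, and Hadh had 29.1, 21.9 and 23.1 CPM in YJZYT, against 30.7, 33.1 and 38.7 CPM in SYT.

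Transcripts of the mitochondrial genome were lower in YJZYT as a block, with overlap between the groups. All 13 had negative log2 fold changes between -1.12 and -0.74 (54.4% of all genes were lower). Of the 13, 5 had an unadjusted p under 0.05 (6.21% of all genes were lower at that p). In 0 of them were all YJZYT libraries below all SYT libraries (6.56% of all genes). They took 15.0%, 6.15% and 8.67% of counts in YJZYT, against 24.1%, 12.3% and 15.5% in SYT (9.95% ± 4.57 and 17.3% ± 6.14, SD, n = 3 each; exact permutation p = 0.2). SYT1 was the highest library and YJZYT1 lay above SYT2. Mt-co3, a subunit of cytochrome c oxidase, had 19800, 9770 and 15200 CPM in YJZYT, against 55600, 16700 and 24900 CPM in SYT. The subunits of the respiratory chain encoded in the nucleus did not share this, with 9 of 20 higher, 11 lower and a median of -0.01. Cox6a2, given above, was the only one of the 20 at an unadjusted p under 0.05.

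Connective tissue of tendon, periosteum and other fibroblasts was lower in YJZYT. All 16 genes of the list were lower (54.4% of all genes were), 5 at an unadjusted p under 0.05 (6.21% of all genes). In 4 the groups did not overlap (6.56% of all genes). The median was -1.34, or -0.67 without both YJZYT3 and SYT3. Col3a1, the collagen of loose and healing connective tissue (chr9:52023295-52059217), had 271, 181 and 89.2 CPM in YJZYT, against 720, 915 and 1440 CPM in SYT. The highest YJZYT library was below the lowest SYT library, and the log2 fold change was -2.51 ± 0.49 (SE; edgeR adjusted p = 0.231, DESeq2 adjusted p = 0.000102). Its share of all counts was 0.0178% ± 0.00958 in YJZYT and 0.0947% ± 0.0393 in SYT (SD, n = 3 each), with an exact permutation p of 0.1, the smallest that 3 against 3 can give. The clone-named gene AABR07067556 overlaps Col3a1 on the same strand.

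Other matrix genes gave both separate and overlapping groups. Aspn, asporin, a small leucine-rich proteoglycan that binds collagen, had 7.68, 6.48 and 3.55 CPM in YJZYT, against 39.1, 18.0 and 41.3 CPM in SYT, and the entry Aspnl1, a near copy that may share its reads, had 3.85, 3.32 and 3.33 CPM in YJZYT, against 24.9, 9.91 and 26.5 CPM in SYT. Postn, periostin of the periosteum, had 69.9, 74.0 and 28.5 CPM in YJZYT, against 164, 90.4 and 289 CPM in SYT. Aspn and Aspnl1 were chosen among genes whose groups did not overlap, and in Postn the groups did not overlap either. Col6a1, a chain of the microfibrillar collagen VI, had 118, 84.2 and 25.8 CPM in YJZYT, against 91.8, 257 and 414 CPM in SYT, and here SYT1 lay below YJZYT1. Ogn, osteoglycin, had 7.95, 27.3 and 6.69 CPM in YJZYT, against 44.8, 33.1 and 33.9 CPM in SYT.

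Bone-forming genes had lower means in YJZYT, and the direction depended on the 2 libraries that stood apart. All 15 osteoblast genes were lower (54.4% of all genes were), with a median of -0.82, and 1 of them, Postn, had an unadjusted p under 0.05 (6.21% of all genes). Col1a1, the main collagen chain of bone, had 29000, 13700 and 2430 CPM in YJZYT, against 12900, 18200 and 75000 CPM in SYT (log2 fold change -1.23, 95% interval -3.31 to 0.85, edgeR adjusted p = 0.676). SYT3 was the highest and YJZYT3 the lowest of the 6, and the other 4 libraries were mixed. Without both, the osteoblast median was 0.27, the osteocyte median 0.29, beside -0.82 with all libraries, and the osteoclast median 0.21, beside -0.33. Col1a1 took 1.5% ± 1.37 of counts in YJZYT and 3.31% ± 3.31 in SYT (SD, n = 3 each; exact permutation p = 0.6).

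The transcription factors that set the osteoblast fate gave the same picture. Runx2 had 69.3, 43.2 and 23.0 CPM in YJZYT, against 53.8, 60.6 and 114 CPM in SYT, with a 95% interval of the log2 fold change of -1.72 to 0.20. Sp7 had 25.5, 14.0 and 3.61 CPM in YJZYT, against 11.3, 17.8 and 52.1 CPM in SYT, with an interval of -2.53 to 0.70. Bglap, which encodes osteocalcin, had 1130, 1200 and 440 CPM in YJZYT, against 1130, 646 and 2750 CPM in SYT, with an interval of -2.15 to 0.73. The groups overlapped in all 3 genes, and each interval held both no difference and a 2-fold lower level.

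Sost was the only key bone gene with a higher value in YJZYT at an unadjusted p under 0.05. It encodes sclerostin, which osteocytes secrete and which restrains Wnt signalling and bone formation. It had 17.0, 1.18 and 6.59 CPM in YJZYT, against 0.825, 0.870 and 3.59 CPM in SYT (log2 fold change 2.22, 95% interval 0.35 to 4.10, edgeR adjusted p = 0.516). YJZYT1 was far above the other libraries and YJZYT2 lay below SYT3, so the groups overlapped. Dmp1, another osteocyte gene, had 313, 359 and 183 CPM in YJZYT, against 373, 230 and 1310 CPM in SYT (95% interval -2.64 to 0.32).

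Osteoclast genes and the cytokines that govern them were not separated. Of 15 osteoclast genes 3 were higher and 12 lower (54.4% of all genes were lower). Only 1, Car2, had an unadjusted p under 0.05, and it was higher (2.89% of all genes were higher at that p). Car2, carbonic anhydrase of osteoclasts and also of red cell precursors, had 1760, 2730 and 3550 CPM in YJZYT, against 1370, 2030 and 606 CPM in SYT. Ctsk, cathepsin K, had 2730, 2200 and 452 CPM in YJZYT, against 1430, 2550 and 4130 CPM in SYT (95% interval -2.06 to 0.87). Acp5, which encodes the phosphatase TRAP, had a 95% interval of -2.56 to 0.86. Tnfsf11, which encodes RANKL, the cytokine that drives osteoclast formation, had 1.72, 0.660 and 0.566 CPM in YJZYT, against 1.28, 1.3 and 3.87 CPM in SYT. Its decoy receptor Tnfrsf11b, osteoprotegerin, had 11.1, 5.13 and 3.41 CPM in YJZYT, against 4.67, 44.2 and 30.3 CPM in SYT (log2 fold change -2.01, 95% interval -3.95 to -0.07, edgeR adjusted p = 0.546). For both cytokines the groups overlapped, for Tnfrsf11b because SYT1 was below YJZYT1 and YJZYT2.

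**Figure D3:**
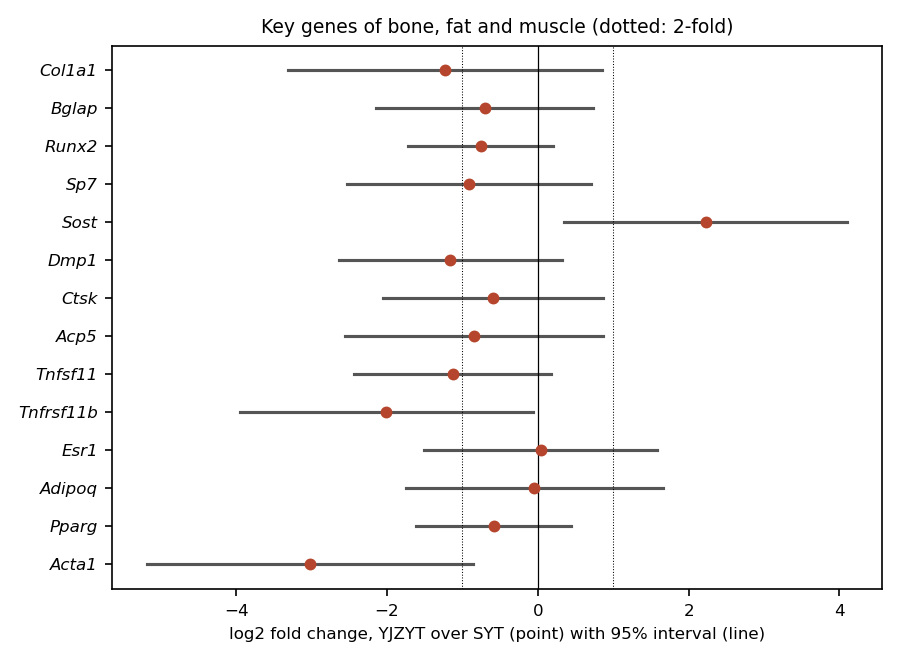
Log2 fold change, YJZYT over SYT, of 14 key genes of bone, fat and muscle (points) with unadjusted 95% intervals (lines), and dotted lines at a 2-fold change. The interval leaves out 0 for Sost (0.35 to 4.10), Tnfrsf11b (-3.95 to -0.07) and Acta1 (-5.18 to -0.86), and the other 11 intervals include 0.

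Cartilage transcripts varied widely between the libraries of each group. All 16 chondrocyte genes had negative log2 fold changes (54.4% of all genes did), with a median of -1.18. Of them 0 had an unadjusted p under 0.05 (6.21% of all genes were lower at that p). Col2a1, the collagen of cartilage, had 4700, 1240 and 15.5 CPM in YJZYT, against 1370, 10600 and 7440 CPM in SYT. YJZYT3 stood far below the other 5 libraries in this and in Acan, the main cartilage proteoglycan, which had 281, 84.6 and 1.22 CPM in YJZYT, against 81.2, 487 and 430 CPM in SYT. Without both YJZYT3 and SYT3 the list's median was -0.56.

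Genes induced by glucocorticoids were lower in YJZYT. Glucocorticoids act through a nuclear receptor that switches on a small set of genes in most tissues. Of 12 genes 10 were lower (54.4% of all genes were), 7 at an unadjusted p under 0.05 (6.21% of all genes). In 5 the groups did not overlap (6.56% of all genes). The median was -1.08, or -0.76 without both YJZYT3 and SYT3. Tsc22d3, which encodes the glucocorticoid-induced leucine zipper (chrX:111884295-111887906), had 38.2, 43.7 and 51.1 CPM in YJZYT, against 105, 93.8 and 129 CPM in SYT. The groups were well apart, the log2 fold change was -1.3 ± 0.24 (SE; edgeR adjusted p = 0.231, DESeq2 adjusted p = 0.000777), and Model averaged 93.3 ± 5.75 CPM (SD, n = 3). It was the only gene of the list that DESeq2 called.

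The other members that separated were Errfi1, a feedback inhibitor of EGF receptor signalling, Per1, Klf9 and Dusp1. Errfi1 had 12.6, 17.7 and 10.8 CPM in YJZYT, against 28.4, 35 and 57.3 CPM in SYT, and Dusp1, a phosphatase that switches off MAP kinases, had 33.3, 50.8 and 67.7 CPM in YJZYT, against 152, 89.7 and 85.8 CPM in SYT. Klf9 was close to overlap, with 7.47 CPM in YJZYT1 against 7.5 CPM in SYT1. Fkbp5, a classical target of the receptor, overlapped between the groups, with 117, 119 and 118 CPM in YJZYT against 89.3, 130 and 116 CPM in SYT. Sgk1, a kinase also induced by the receptor, had 49.8, 57.7 and 84.8 CPM in YJZYT, against 58.8, 58.2 and 55.8 CPM in SYT.

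Clock genes and immediate early genes, which share Per1 and Dusp1 with that list, were lower too. Of 16 clock genes 13 were lower (54.4% of all genes were), 7 at an unadjusted p under 0.05 (6.21% of all genes), with a median of -0.60. Per1, a repressor of the clock, had 8.93, 13.5 and 11.7 CPM in YJZYT, against 14.8, 28.2 and 32.1 CPM in SYT, and Nr1d2, a nuclear receptor of the clock, had 23.3, 20.2 and 18.5 CPM in YJZYT, against 27.2, 30.4 and 66.2 CPM in SYT. Neither gene overlapped between the groups, while Clock and Per2 did. Over the clock list, 3 genes lay below without overlap (6.56% of all genes) and 1 lay above (5.14% of all genes). Of 16 immediate early genes, which respond within minutes to growth factors or handling, 14 were lower, 5 at an unadjusted p under 0.05 (6.21% of all genes), and in 7 the groups did not overlap (6.56% of all genes). Jun had 24.5, 12 and 11.7 CPM in YJZYT, against 34.7, 31.7 and 44.7 CPM in SYT, and Junb had 26.8, 25.1 and 25.9 CPM in YJZYT, against 46.9, 33.7 and 45.6 CPM in SYT. The labels give neither the time of day nor the handling at collection.

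Bnip3, Depp1 and Ddit4, stress genes that low oxygen, fasting or FoxO factors are known to induce, were lower in all YJZYT libraries. Bnip3 and Depp1 were chosen among genes whose groups did not overlap, and Ddit4 as a list member with a small p. The integrated stress response and serine synthesis list, to which Ddit4 belongs, had 10 of 14 genes higher and 4 lower. Its median was 0.17, or -0.04 without both YJZYT3 and SYT3. Bnip3, a receptor for the removal of mitochondria (chr1:211248098-211265282), had 23.9, 13.4 and 10.6 CPM in YJZYT, against 47.7, 66.5 and 53.7 CPM in SYT (log2 fold change -1.81 ± 0.34 SE, edgeR adjusted p = 0.231), and Model averaged 24.4 ± 5.95 CPM. Depp1 had 2.36, 1.43 and 2.96 CPM in YJZYT, against 10.1, 7.95 and 13.8 CPM in SYT, and Ddit4, an inhibitor of mTORC1, had 18.8, 17.4 and 14.4 CPM in YJZYT, against 42.4, 53.4 and 100 CPM in SYT. The hypoxia and glycolysis list to which Bnip3 belongs had 10 of 15 genes lower and a median of -0.24, and Vegfa had 28.8, 18.6 and 25.5 CPM in YJZYT, against 28.2, 33.8 and 24.1 CPM in SYT.

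Fat cell genes lay in both directions. Fabp4, a fatty acid carrier of fat cells, macrophages and capillaries, had 47.3, 51.4 and 42.6 CPM in YJZYT, against 122, 114 and 99.6 CPM in SYT, with tight groups well apart (log2 fold change -1.25). Lpl, lipoprotein lipase of fat and muscle, had 61.4, 51.5 and 26.7 CPM in YJZYT, against 64.9, 102 and 150 CPM in SYT. Mrap, an accessory protein of melanocortin receptors, was the reverse, with 1.95, 2.63 and 2.98 CPM in YJZYT against 0.916, 1.49 and 0.753 CPM in SYT (log2 fold change 1.26). Adipoq, adiponectin, the defining fat cell product, had 19.3, 12.4 and 6.41 CPM in YJZYT, against 13.4, 21.5 and 4.46 CPM in SYT (95% interval -1.75 to 1.66), and Pparg had an interval of -1.61 to 0.44. Over the 18 genes 5 were higher and 13 lower, with a median of -0.15. Of the brown fat list Cox8b, which muscle also makes, had 2.3, 0 and 0.516 CPM in YJZYT, against 10.4, 10.3 and 21.1 CPM in SYT.

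Platelet and megakaryocyte genes were the group with the highest values in YJZYT. Megakaryocytes are the large marrow cells that shed platelets. All 14 genes of the list were higher (45.6% of all genes were), 6 at an unadjusted p under 0.05 against 2.89% of all genes. In 7 every YJZYT library lay above every SYT library, against 5.14% of all genes. The median log2 fold change was 1.55, or 0.67 without both YJZYT3 and SYT3, and it ranged between 0.93 and 2.23 with single libraries left out. Gp1bb, a chain of the platelet receptor for von Willebrand factor (chr11:86520992-86522169), had 4.75, 9.49 and 30.3 CPM in YJZYT, against 0.806, 0.311 and 0.576 CPM in SYT (log2 fold change 4.72 ± 1.02 SE, edgeR adjusted p = 0.32, DESeq2 adjusted p = 3.62e-05). It overlaps Septin5 on the same strand, so counts may be shared between both genes. It was the only gene of the list that DESeq2 called.

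The other platelet genes differed by smaller amounts. Pf4, platelet factor 4, had 129, 164 and 445 CPM in YJZYT, against 56.9, 124 and 40.1 CPM in SYT, and Ppbp, another platelet chemokine, had 81.1, 153 and 272 CPM in YJZYT, against 28.7, 73.5 and 14.4 CPM in SYT. Both were higher in every YJZYT library, with YJZYT3 the highest and SYT3 the lowest. In the Model libraries Pf4 had a mean of 168 CPM and Ppbp of 143 CPM, while Gp1bb averaged 1.99 ± 0.635 CPM (SD, n = 3). Itgb3, shared with osteoclasts, had 104, 97.5 and 87.6 CPM in YJZYT, against 33.9, 105 and 112 CPM in SYT.

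Red cell genes had higher means in YJZYT and overlapped between the groups. Of 14 genes of haemoglobin and heme synthesis 13 were higher (45.6% of all genes were), 3 at an unadjusted p under 0.05 (2.89% of all genes). Of 15 genes of the red cell membrane and its regulators all 15 were higher, 0 at an unadjusted p under 0.05. Both medians were 0.78, and without both YJZYT3 and SYT3 they were 0.14 and 0.19. Ahsp, which stabilises free alpha globin, had 685, 1460 and 1610 CPM in YJZYT, against 673, 850 and 216 CPM in SYT. Haemoglobin chains took 7.59%, 15.3% and 17.1% of counts in YJZYT, against 8.47%, 12.5% and 3.74% in SYT (13.3% ± 5.05 and 8.24% ± 4.39, SD, n = 3 each; exact permutation p = 0.3). YJZYT1 lay below SYT1, and SYT3 was the lowest library.

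Genes of cell division and DNA replication were higher by small and even amounts. All 19 genes of the list were higher (45.6% of all genes were), 8 at an unadjusted p under 0.05 (2.89% of all genes). In 5 the groups did not overlap (5.14% of all genes). The median was 0.63, or 0.35 without both YJZYT3 and SYT3. Cdk1, the kinase that starts mitosis, had 121, 162 and 177 CPM in YJZYT, against 84.7, 121 and 62.1 CPM in SYT. Pcna, the sliding clamp of DNA polymerase, had 244, 370 and 377 CPM in YJZYT, against 199, 244 and 156 CPM in SYT. For both, YJZYT1 lay just at the level of SYT2, the highest SYT library. Among genes outside the list, Prim1, the catalytic subunit of DNA primase, had 112, 258 and 154 CPM in YJZYT, against 83.2, 81.0 and 70.5 CPM in SYT (log2 fold change 1.16 ± 0.30 SE, edgeR adjusted p = 0.321), Fen1, the flap endonuclease of replication, had 82.6, 97.1 and 113 CPM in YJZYT, against 62.5, 69.1 and 50.6 CPM in SYT, and Cenpm, a centromere protein, had 15.5, 18.5 and 16.2 CPM in YJZYT, against 9.51, 12.5 and 8.77 CPM in SYT. Mki67, a marker of cycling cells, had 1090, 1310 and 1530 CPM in YJZYT, against 579, 1510 and 401 CPM in SYT, and the groups overlapped. The score of the red cell membrane list, the median log2 deviation of its members, was 0.16, 0.54 and 0.96 in YJZYT, against -0.65, 0.68 and -1.67 in SYT, an order close to that of the cell division genes, and its part in them was not tested.

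**Figure D4:**
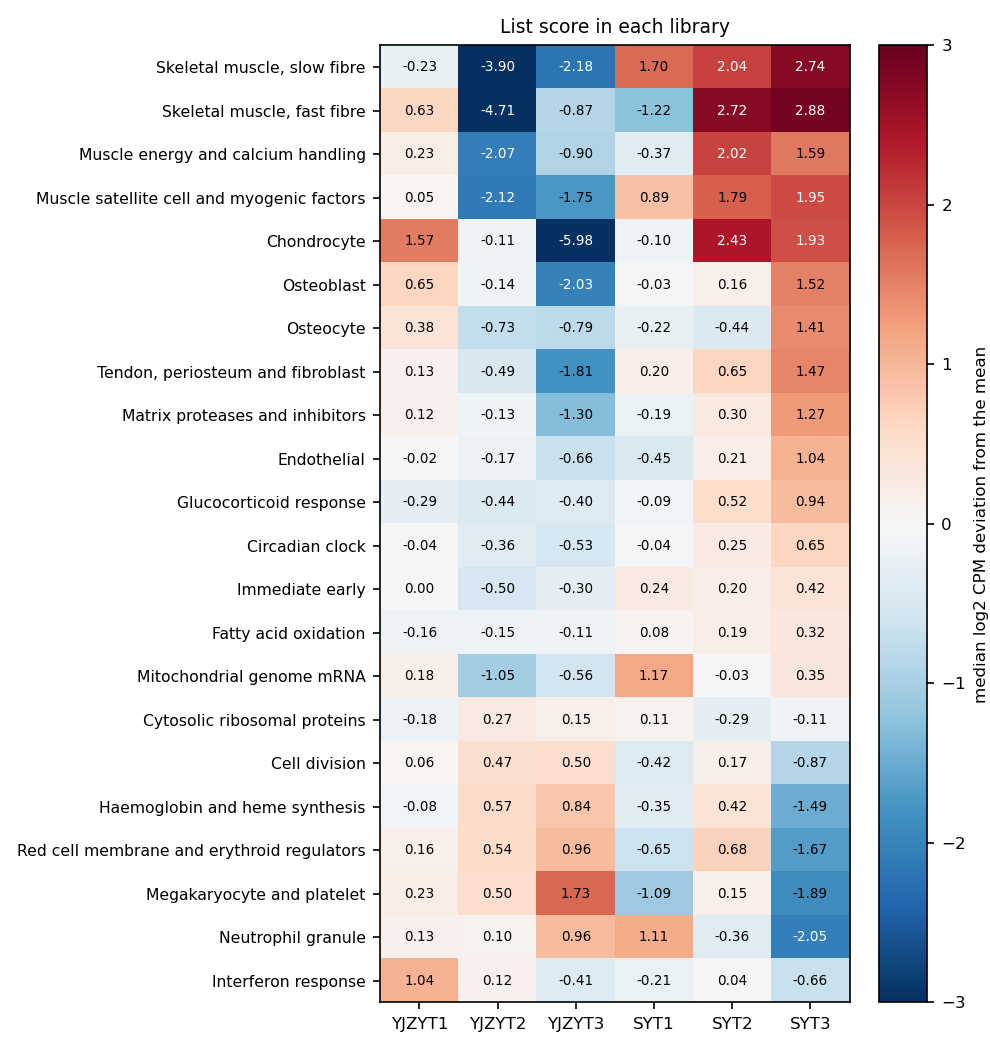
Score of 22 gene lists in each library, as the median over members of log2 CPM minus the mean over the 6 libraries, with YJZYT columns left and SYT columns right and red for high. Slow fibre scores are -0.23, -3.90 and -2.18 in YJZYT against 1.70, 2.04 and 2.74 in SYT, while the fast fibre score of SYT1 is -1.22.

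Septin7 had the smallest unadjusted p of the named genes that were higher in YJZYT. It encodes a GTPase of the septin cytoskeleton (chr8:26413233-26476611). It had 55.6, 87.7 and 80.4 CPM in YJZYT, against 24.4, 18.8 and 28.2 CPM in SYT, and the groups were well apart. The log2 fold change was 1.65 ± 0.33 (SE; edgeR adjusted p = 0.231, DESeq2 adjusted p = 0.000972). Model averaged 75.4 ± 10.5 CPM (SD, n = 3). RT1-T24-1, a class I gene of the rat MHC, had 32.7, 35.4 and 25.7 CPM in YJZYT, against 12.1, 14.1 and 14.0 CPM in SYT. Its family has near-identical copies that may share reads, and it overlaps the clone-named gene AABR07044364.

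Other genes higher in YJZYT were low in abundance or differed little. Pdzk1ip1 had 0.758, 1.43 and 2.00 CPM in YJZYT, against 0.183, 0.388 and 0.148 CPM in SYT, with a log2 fold change of 2.53. C1qtnf12, adipolin, a secreted protein related to adiponectin, had 4.01, 4.28 and 3.21 CPM in YJZYT, against 1.94, 2.25 and 1.15 CPM in SYT. Snrpa, a protein of the U1 splicing particle, had 32.6, 33.2 and 34.8 CPM in YJZYT, against 22.8, 23.8 and 21.3 CPM in SYT. Tkfc, Tmem209, Ccdc181, Dscc1, Mthfd2 and Apobec3 completed the 15 with log2 fold changes between 0.53 and 0.96 and edgeR adjusted p between 0.377 and 0.402.

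Interferon-stimulated genes were all higher on average, many of them highest in YJZYT1. All 18 had positive log2 fold changes (45.6% of all genes did), 2 at an unadjusted p under 0.05 (2.89% of all genes). In 0 were the groups separate (5.14% of all genes), and the median was 0.71. Cxcl10, an interferon-induced chemokine, had 4.67, 0.977 and 0.416 CPM in YJZYT, against 0.660, 0.575 and 0.443 CPM in SYT. Mx1, an antiviral GTPase, had 37.9, 11.5 and 9.22 CPM in YJZYT, against 9.13, 10.5 and 8.22 CPM in SYT. Only YJZYT1 stood out in both, and without it the list's median was 0.10. Cmpk2, the other gene at an unadjusted p under 0.05, did not follow YJZYT1, with 82.1, 99.2 and 135 CPM in YJZYT against 54.2, 82.7 and 22.2 CPM in SYT.

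Signalling pathways of bone had lower medians in YJZYT. Of 20 genes of the BMP, TGF-beta and activin pathway 19 were lower (54.4% of all genes were). At an unadjusted p under 0.05 there were 4 (6.21% of all genes), and the median was -0.53, or 0.13 without both YJZYT3 and SYT3. Id1, a target gene of BMP signals, had 28.5, 19.9 and 24.1 CPM in YJZYT, against 50.6, 30.1 and 38.5 CPM in SYT, and Bmpr2, a BMP receptor, had 10.7, 7.59 and 5.84 CPM in YJZYT, against 10.8, 15.5 and 21.7 CPM in SYT. Both separated the groups, Bmpr2 by a narrow margin at YJZYT1 and SYT1. All 10 genes of the IGF axis were lower (54.4% of all genes were), 3 at an unadjusted p under 0.05 (6.21% of all genes). The median was -0.49, or -0.16 without both YJZYT3 and SYT3. Among the 3 was Igf2, a fetal growth factor that muscle precursors also make, with 2.79, 2.56 and 7.21 CPM in YJZYT against 7.06, 12.6 and 21.5 CPM in SYT. The Wnt list had 16 of 19 genes lower (54.4% of all genes were), with a median of -0.59, or -0.02 without both YJZYT3 and SYT3. The 2 at an unadjusted p under 0.05 (6.21% of all genes were lower at that p), Wnt16 and Wnt7b, were under 2 CPM in every library.

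The hormone receptors did not separate the groups. Esr1, the main oestrogen receptor of bone, had 4.46, 3.43 and 1.96 CPM in YJZYT, against 2.42, 1.32 and 5.86 CPM in SYT (log2 fold change 0.04, 95% interval -1.51 to 1.58). Vdr, the vitamin D receptor, had 64.9, 42.3 and 12.2 CPM in YJZYT, against 32.7, 55.0 and 222 CPM in SYT. For Esr1 the interval included more than a 2-fold difference in either direction.

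Mature neutrophil, monocyte, B cell, T and NK cell lists had medians between -0.33 and 0.06 with all libraries, and of their genes only Fcer2 had an unadjusted p under 0.05. Without both YJZYT3 and SYT3 the medians were -0.94 for mature neutrophils and 0.40 for monocytes and macrophages, and with 1 library left out the mature neutrophil median ranged between -0.59 and 0.77. Of 14 neutrophil granule genes 8 were higher and 6 lower, with a median of 0.23, or -0.81 without both YJZYT3 and SYT3, -0.34 without YJZYT3 and -0.24 without SYT3. The 2 at an unadjusted p under 0.05, Elane and Ctsg, proteases of early neutrophil granules, had higher means in YJZYT, Elane with 174, 187 and 245 CPM in YJZYT against 137, 93.6 and 48.3 CPM in SYT. Of 9 stem and progenitor genes 7 were higher, with a median of 0.41. The 2 lower ones, Mecom and Cd34, which mark stem cells and endothelium, both had an unadjusted p under 0.05, Cd34 with 10.7, 9.07 and 6.24 CPM in YJZYT against 14.3, 19.9 and 27.9 CPM in SYT. Kit, the stem cell factor receptor, was higher with 37.2, 31.3 and 38.4 CPM in YJZYT against 24.8, 27.0 and 17.8 CPM in SYT. Endothelial genes had 11 of 13 lower (54.4% of all genes were) with a median of -0.71, or -0.05 without both YJZYT3 and SYT3. The 19 ribosomal protein genes were all higher (45.6% of all genes were) by a median of 0.16, with 0 at an unadjusted p under 0.05.

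**Figure D5:**
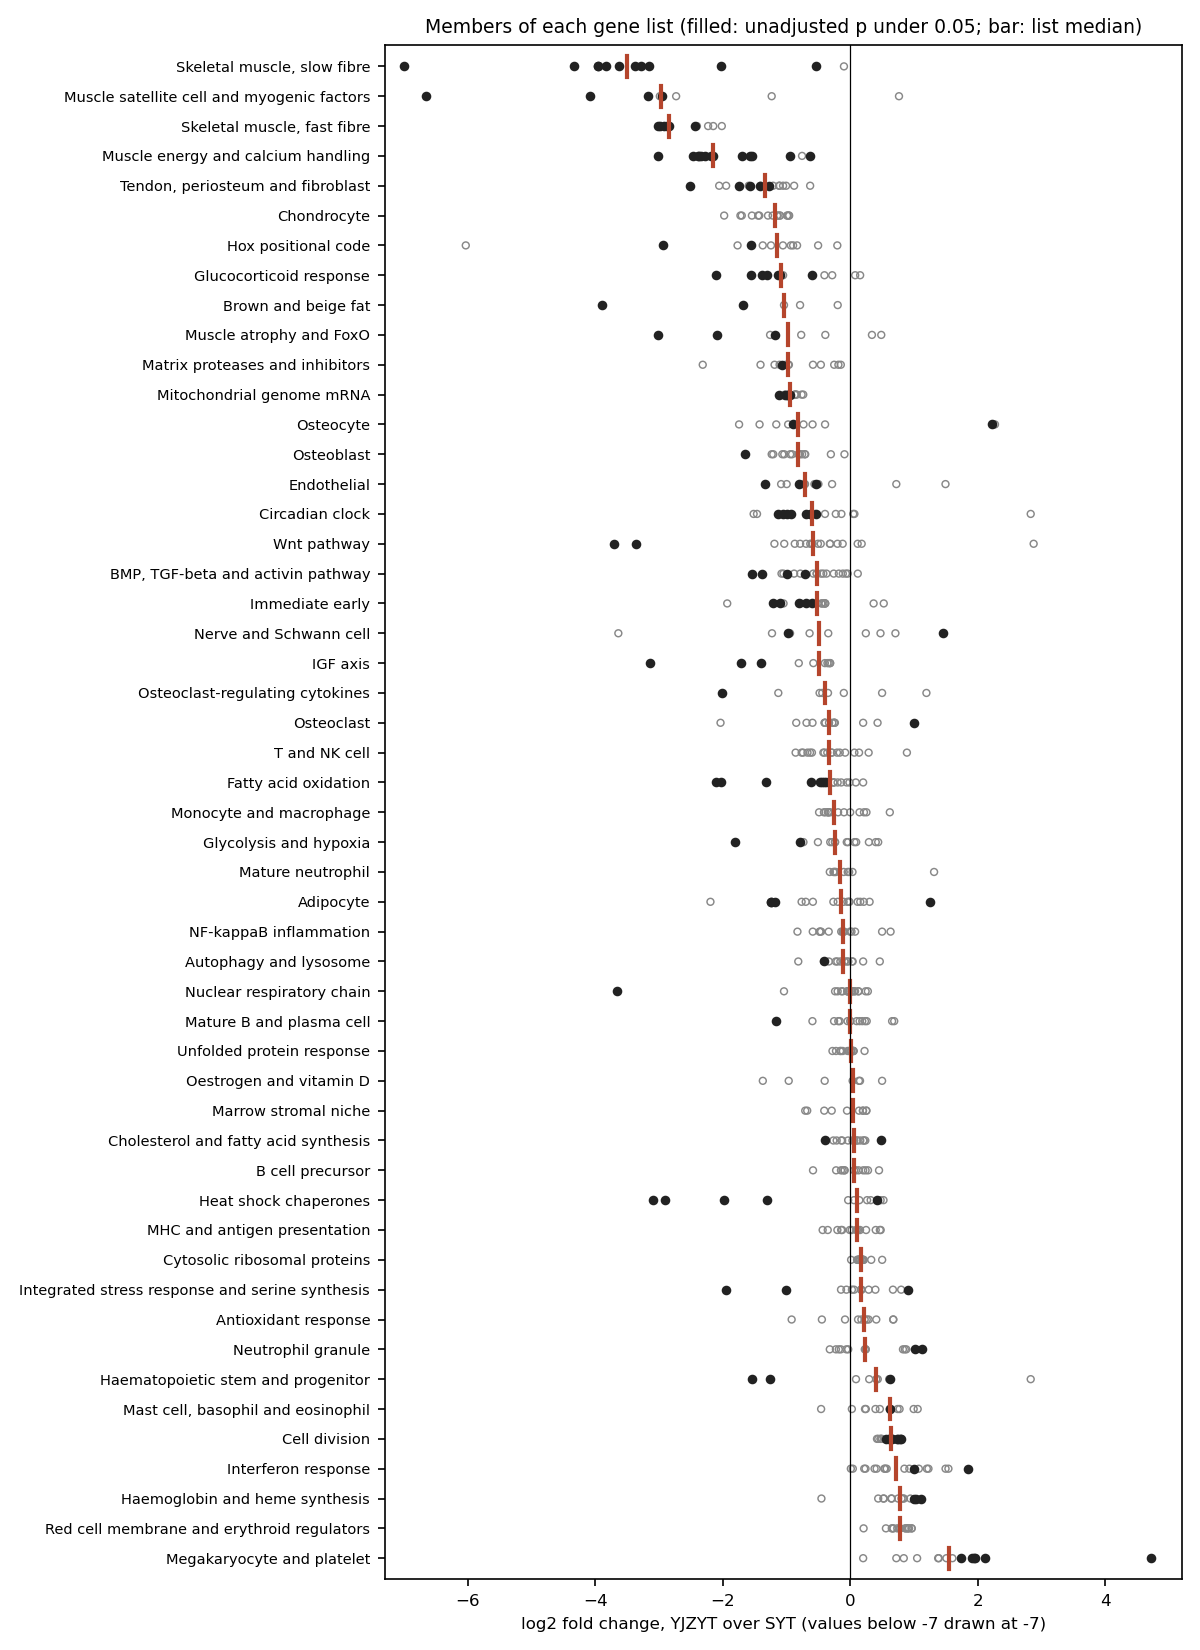
Log2 fold change, YJZYT over SYT, of each tested member of 51 gene lists, sorted by list median (red bar), with filled points at an unadjusted p under 0.05 and values below -7 drawn at -7. The slow fibre list has the lowest median at -3.50 and the platelet list the highest at 1.55, and most lists centre within 1 log2 unit of 0.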

How the data were processed

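RNA of rat bone was extracted with Trizol, selected with oligo(dT), marked for strand with dUTP, tagged with molecular identifiers and sequenced as paired ends, per the labels' protocols. Tools listed in the submitters' processing notes, without a role for each, are edgeR, DESeq2, StringTie 1.3.4d, HISAT2 2.0.4, cutadapt 1.9 and UMI-tools. The sources used here give no genome build, annotation or counting step, so overlapping genes and near-identical copies may share reads. The table deposited by the authors gives, for every gene, 1 raw count column and 1 FPKM column for each library, per the file headers. Whether molecular identifiers were collapsed before counting is not given, so floors cover counting error only.

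Counts were tested with edgeR 4.0.16 (TMM factors, filterByExpr, robust quasi-likelihood fit over all 15 libraries in 5 groups, two-sided, Benjamini-Hochberg adjustment over 17657 genes, threshold 0.05) in R 4.3.3, and 4811 genes were left out by the filter. Standard errors were taken as log2 fold change over the square root of F. Alternatives used DESeq2 1.42.0 and limma 3.58.1 on log2 FPKM + 1 and + 0.1. The fitting steps were tested on simulated data. Shares of counts were compared with exact permutation tests. Col1a2 is not analysed here, so the Col1a1 share is that gene alone.

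Named genes were up to 15 in each direction with the smallest p among genes with a mean of at least 1 FPKM and no overlap between the groups, excluding clone identifiers, up to 4 members of each of 51 lists, and 14 key genes. Genes named beyond these are list members chosen after their values were seen. The lists, their 710 symbols (673 genes tested) and the named members were chosen with earlier results of these data known. Replicate numbers do not pair libraries: deviations of same-numbered libraries correlated at -0.322, -0.152 and -0.418.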

Additional observations from a re-analysis of the deposited data

How the results depend on the processing

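In each edgeR or limma setting 0 genes passed. The smallest adjusted p was 0.226 with all libraries, 0.0636 to 0.829 with 1 library left out (lowest without YJZYT1, highest without SYT3) and 1 without both YJZYT3 and SYT3, an alternative chosen after seeing the data. DESeq2 called 280 genes. The 899 genes at an unadjusted p under 0.05 and a 2-fold difference became 213 with a mean of at least 5 FPKM, 343 on log2 FPKM + 1 with limma, 591 with only the 6 libraries, 617 to 1500 with 1 library left out and 522 without both YJZYT3 and SYT3. With 0.1 in place of 1 added to FPKM, 471 of 1639 genes at an unadjusted p under 0.05 were lower (28.7%). Leaving out scaling factors moved the median log2 fold change of all genes by 0.106, and limma moved it by 0.14 (+ 1) and 0.161 (+ 0.1). The replicate numbers do not pair the libraries, and with the replicate block 0 genes passed (smallest adjusted p 0.417) and 836 genes had an unadjusted p under 0.05 and a 2-fold difference. The cause of these shifts was not tested.

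Values of genes described above and of other named list members changed direction. With all libraries, log2 fold changes not given above were -0.96 for Col11a1, -0.71 for Cdh11, -0.25 for Mmp9, 0.14 for Lyz2, -0.35 for Csf1r, -0.36 for Cd4, -0.92 for Gpx3, 0.12 for Cat, 0.06 for Cd79a, -0.09 for Cd79b, 0.10 for Cd74, -0.10 for Il1b, -0.23 for S100a8, 0.05 for Calr, 0.01 for Hsp90b1, 0.14 for Cxcl12, -1.37 for Vdr and -0.85 for Acp5. Without both of these libraries the difference in the share of Col1a1 was 0.736 percentage points, and with 1 library left out it ranged between -2.93 and 0.0975. Without both, log2 fold changes were 0.47 for Col1a1, 0.4 for Bglap, 0.45 for Sp7, 0.17 for Dmp1, 0.32 for Ctsk, 0.16 for Acp5, 0.3 for Vdr, 0.05 for Col11a1, 0.45 for Cdh11, 0.21 for Mmp9, -0.74 for Lyz2, 0.2 for Csf1r, 0.54 for Cd4, 0.12 for Gpx3 and -0.19 for Cat. Without scaling factors they were 0.03 for Cd79b, 0.06 for Il1b and 0.07 for Adipoq. On log2 FPKM + 1 they were 0.71 for S100a8, 0.05 for Cd79b, 0.23 for Il1b and 0.14 for Adipoq, and on log2 FPKM + 0.1 0.71 for S100a8, 0.05 for Cd79b, 0.28 for Il1b and 0.19 for Adipoq. With the block they were 0.03 for S100a8, 0.04 for Il1b and -0.24 for Esr1, and with a mean of at least 5 FPKM -0.02 for Calr, -0.05 for Hsp90b1 and -0.01 for Cd79a. With 1 library left out, the ranges that crossed 0 were -0.48 to 0.51 for Adipoq, -1.07 to 0.06 for Bglap, -0.02 to 0.19 for Calr, -0.08 to 0.45 for Cat, -0.93 to 0.11 for Cd4, -0.43 to 0.32 for Cd74, -0.27 to 0.23 for Cd79a, -0.27 to 0.19 for Cd79b, -1.17 to 0.02 for Cdh11, -0.27 to 0.84 for Cxcl12, -0.34 to 0.81 for Esr1, -0.06 to 0.08 for Hsp90b1, -0.49 to 0.84 for Il1b, -0.34 to 0.92 for Lyz2, -0.83 to 0.08 for Mmp9 and -0.74 to 1.57 for S100a8.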
